A study of Mus musculus with 8 samples.

Results

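The resident macrophages of the liver, called Kupffer cells, were followed in bulk RNA sequencing of whole liver through 10 marker genes: Clec4f, Vsig4, Timd4, Cd5l, Marco, Clec1b, Folr2, Adgre1, Cd163 and Csf1r. They were selected by symbol as markers of resident Kupffer cells and of macrophages in general, and each matched exactly 1 row among the 52110 rows of the table that carry a gene name. The libraries came from wild-type mice made steatohepatitic with CDAHFD, a diet high in fat, lacking choline and with amino acids in place of protein. All animals received human circulating vesicles by vein. In RIC_hEV (4 libraries) the volunteers who gave the vesicles had undergone remote limb ischemic conditioning, brief interruptions of blood flow to a limb, and in ctr_hEV (4 libraries) they had undergone a sham procedure. The labels give no age, sex, dose, time or animal number, and no untreated mice or mice on a normal diet were analysed here. Whether each library is a separate mouse is not given, so the p-values measure the spread between these 8 libraries, which may be technical in part.

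Kupffer cells lie inside the liver sinusoids, where they take up particles, microbes, dead cells and ageing red cells from the blood. Their survival depends on signalling through the receptor encoded by Csf1r, and their identity on factors such as LXR alpha (Nr1h3), Spi-C and ID3, which are kept up by signals from neighbouring stellate, endothelial and liver cells. In diet-induced steatohepatitis in mice, resident Kupffer cells are known to be lost in part and replaced by macrophages derived from blood monocytes. Clec4f and Timd4 are commonly used to recognise the resident cells, whereas Adgre1 and Csf1r are shared by resident and recruited macrophages. In bulk tissue, fewer cells of a type and less RNA per cell cannot be told apart.

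Both ctr_hEV 1 and ctr_hEV 3 stood apart from the other libraries. On the first principal component, which held 44.4% of the variance, they lay at 36.1 and 23.3, and the other 6 libraries between -16.3 and 2.36. The summed FPKM (a fragment count corrected for gene length and library size) of 17 general macrophage and myeloid genes was 953 to 1363 in RIC_hEV and 1178 to 2180 in ctr_hEV, where ctr_hEV 1 and ctr_hEV 3 had 2180 and 1719. The same pair had the highest sums of stellate cell markers (38.3 to 60.4 FPKM in RIC_hEV and 37.9 to 153 in ctr_hEV) and of cholangiocyte markers (2.88 to 3.23 FPKM in RIC_hEV and 2.88 to 16.9 in ctr_hEV). Summed neutrophil markers were 9.74 to 19.2 FPKM in RIC_hEV and 16.5 to 80.2 FPKM in ctr_hEV. The immunoglobulin genes Igkc and Jchain lay the other way without overlap, as did 1.31% of all 11274 tested genes. Igkc was at 37.4 to 49.2 FPKM in RIC_hEV and 11.02 to 22.2 FPKM in ctr_hEV. Neither gene passed the threshold used below (limma adjusted p = 0.134 for Igkc and 0.235 for Jchain). The B cell markers Cd79a (means 0.319 FPKM in RIC_hEV and 0.318 FPKM in ctr_hEV) and Ms4a1 (0.0592 FPKM in RIC_hEV and 0.0537 FPKM in ctr_hEV) overlapped. Sinusoidal endothelial markers summed to 89.9 to 121 FPKM in RIC_hEV and 92.9 to 108 FPKM in ctr_hEV. The part of these other cell types in the results below was not tested. The defining hepatocyte transcript Alb (albumin) was present in all libraries, at 19618 to 24977 FPKM in RIC_hEV and 16909 to 28051 FPKM in ctr_hEV. Depth was estimated from the steps between low values as 19300000 to 28400000 fragments in RIC_hEV and 23700000 to 28700000 fragments in ctr_hEV.

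The promoter windows of Clec4f, Timd4, Vsig4 and Cd5l are shown because these 4 genes are the most characteristic of resident Kupffer cells and differ in whether they followed the general macrophage level. Each window runs from 250 bases before to 50 bases after a RefSeq start site (GRCm38.p6, the same build as mm10) and is written 5′ to 3′ on the strand of the gene. Capitals mark matches on either strand to GAGGAA, the core of the site for the macrophage factors PU.1 and Spi-C, to TGCTGA, the core of the MAF recognition element, and to AGGTCA, the core word bound by nuclear receptors such as LXR alpha.
Clec4f (chr6:83656067-83656366, minus strand): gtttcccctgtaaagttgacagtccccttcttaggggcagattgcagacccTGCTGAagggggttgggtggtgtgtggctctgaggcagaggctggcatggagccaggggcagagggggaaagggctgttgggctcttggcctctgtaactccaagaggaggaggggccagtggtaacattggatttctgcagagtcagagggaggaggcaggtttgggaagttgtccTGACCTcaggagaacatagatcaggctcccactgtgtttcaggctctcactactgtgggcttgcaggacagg
Timd4 (chr11:46810549-46810848, plus strand): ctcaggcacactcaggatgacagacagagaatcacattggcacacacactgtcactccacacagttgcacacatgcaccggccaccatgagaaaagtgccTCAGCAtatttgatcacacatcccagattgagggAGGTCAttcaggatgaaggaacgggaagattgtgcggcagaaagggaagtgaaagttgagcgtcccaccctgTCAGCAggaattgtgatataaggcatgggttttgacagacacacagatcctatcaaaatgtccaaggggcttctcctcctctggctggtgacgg
Vsig4 (chrX:96293389-96293688, minus strand): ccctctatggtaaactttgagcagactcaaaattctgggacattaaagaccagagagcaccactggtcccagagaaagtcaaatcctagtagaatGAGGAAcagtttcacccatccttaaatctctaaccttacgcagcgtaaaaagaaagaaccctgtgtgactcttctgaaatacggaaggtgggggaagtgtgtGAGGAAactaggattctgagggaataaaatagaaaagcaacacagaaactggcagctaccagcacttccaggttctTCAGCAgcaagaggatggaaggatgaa
Cd5l (chr3:87357631-87357930, plus strand): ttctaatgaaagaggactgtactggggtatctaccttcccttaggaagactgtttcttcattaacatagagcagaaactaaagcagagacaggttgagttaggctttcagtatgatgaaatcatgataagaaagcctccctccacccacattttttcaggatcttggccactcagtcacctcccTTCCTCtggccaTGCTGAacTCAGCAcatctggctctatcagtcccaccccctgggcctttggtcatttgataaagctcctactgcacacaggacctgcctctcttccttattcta
No capitalised match overlaps another. Of the 8 members with a window in the RefSeq table, GAGGAA was found for 3 (Cd5l, Marco and Vsig4) and occurs in 28.3% of all 32851 windows. TGCTGA was found for 5 (Cd5l, Clec4f, Folr2, Timd4 and Vsig4) and occurs in 19.5% of all windows. AGGTCA was found for 2 (Clec4f and Timd4), against 16.3% of all windows. The RBPJ word GTGGGAA and the E-box CACGTG were found for 0 of the 8 and occur in 6.38% and 7.15% of all windows. Folr2 has 2 windows, and each holds TGCTGA. These matches describe the letters of the windows only.

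By GENCODE M21 (mm10), the members lie on 8 chromosomes. Clec4f (chr6:83644542-83656187, minus strand), Clec1b (chr6:129397297-129409335, plus strand) and Cd163 (chr6:124304656-124330527, plus strand) share chromosome 6. Marco lies at chr1:120474538-120505024 (minus), Cd5l at chr3:87357881-87371073 (plus), Folr2 at chr7:101839988-101857194 (minus) and Timd4 at chr11:46810800-46844332 (plus). Adgre1 lies at chr17:57358691-57483527 (plus), Csf1r at chr18:61100598-61132149 (plus) and Vsig4 at chrX:96247203-96293438 (minus). Each is protein-coding.

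All 10 members were detected in all 8 libraries, and all had a mean of at least 1 FPKM, the minimum for testing. Cd5l, which encodes a secreted protein of the scavenger receptor family that also inhibits fatty acid synthase, was the highest, with 186 to 379 FPKM over the 8 libraries and no overlap with the next gene. Below it lay Clec4f (39.1 to 72.5 FPKM) and Vsig4 (30.5 to 47.1 FPKM); Clec4f was above Vsig4 in 8 of 8 libraries although their ranges overlap. Csf1r, Marco and Adgre1 had means of 26.5, 25.2 and 23.0 FPKM and overlapping ranges; Csf1r exceeded Marco in 6 of 8 libraries and Marco exceeded Adgre1 in 5. The lowest group began with Folr2 at 5.41 to 10.8 FPKM, which did not overlap Adgre1. It was followed by Clec1b (mean 4.55 FPKM), Cd163 (2.83) and Timd4 (2.75), whose ranges overlap from one to the next; Cd163 was above Timd4 in 4 of 8 libraries. These levels rest on roughly 73 to 638 fragments per library for Cd163 and 98 to 196 for Timd4, and on 8859 to 21325 for Cd5l, by the depth estimate and GENCODE exon lengths.

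None of the 10 members differed between RIC_hEV and ctr_hEV past the threshold of 0.05 on the adjusted p (limma across 11274 genes, Benjamini-Hochberg), and the lowest adjusted p among them was 0.367, for Cd163. Of all tested genes 0.0355% passed (4 of 11274). At an unadjusted p under 0.05 there were 0 members, against 14.0% of all tested genes. The groups overlapped in all 10 members, whereas they did not overlap in 5.87% of all tested genes. On the scale log2(FPKM + 1), 5 members were fitted higher and 5 lower in RIC_hEV, and 73.0% of all tested genes were fitted lower. The median difference of the members was -0.08 and that of all tested genes -0.11, so the differences of the members are given as fitted and relative to the median gene. The p-values and intervals belong to the fitted difference.

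**Figure D1:**
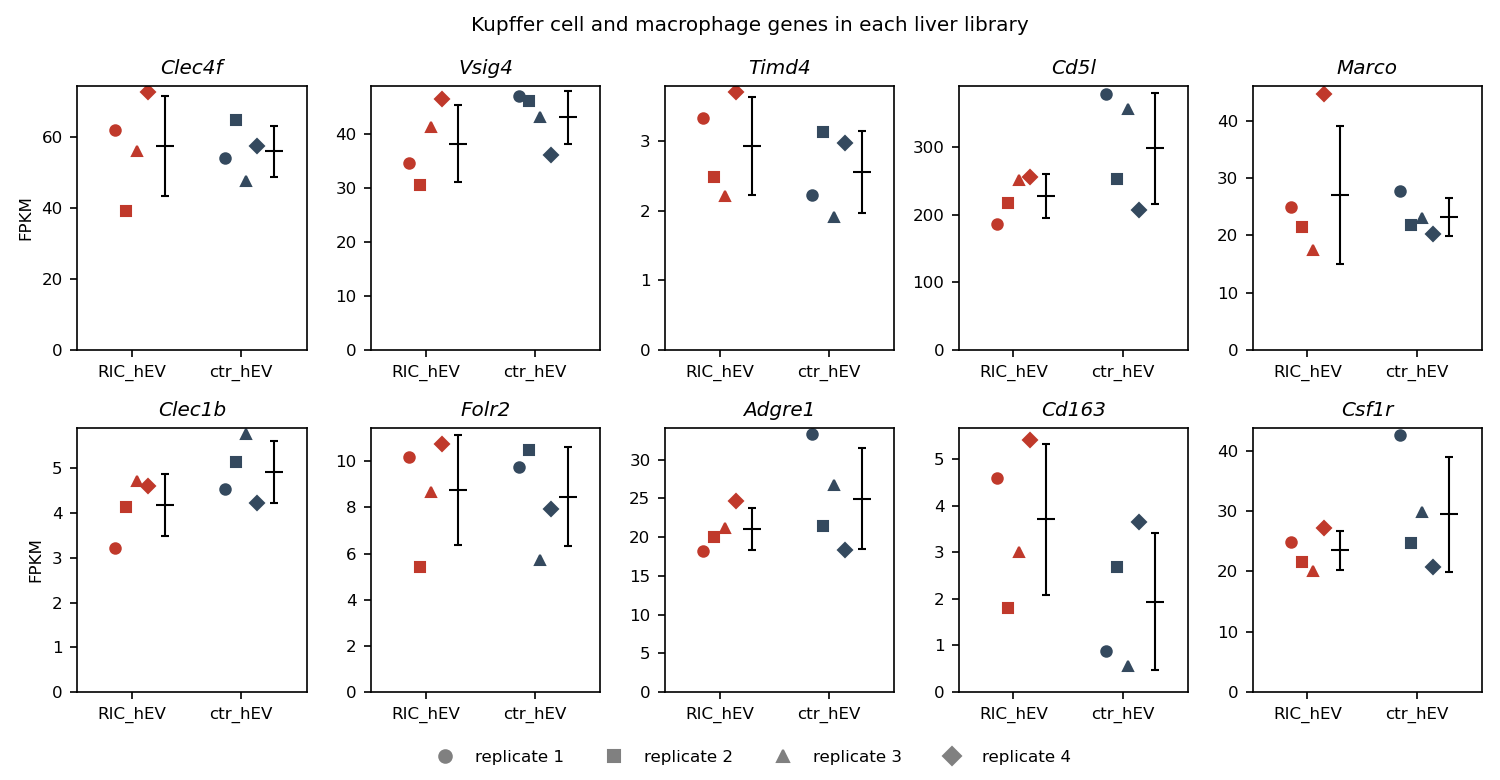
FPKM of each member (y axis, from 0) in the 4 RIC_hEV and the 4 ctr_hEV libraries; marker shapes give the replicate number and bars the mean ± SD (n = 4). The groups overlap in every panel, and in Cd163 ctr_hEV 1 and ctr_hEV 3 lie below the other 6 libraries.

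Among the genes closest to resident identity, Clec4f, a C-type lectin of mouse Kupffer cells that binds sugars, had groups that overlapped widely. It had 61.9, 39.1, 55.9 and 72.5 FPKM in RIC_hEV 1 to 4, against 54.0, 64.7, 47.4 and 57.4 FPKM in ctr_hEV 1 to 4. Both its lowest and its highest library were RIC_hEV libraries. The fitted log2 difference was 0.01 (95% interval -0.38 to 0.40, limma adjusted p = 0.978) and 0.12 relative to the median gene. Timd4, a receptor for phosphatidylserine on dying cells, had 3.33, 2.48, 2.22 and 3.70 FPKM in RIC_hEV 1 to 4, against 2.23, 3.13, 1.91 and 2.97 FPKM in ctr_hEV 1 to 4. The lowest library was ctr_hEV 3, and the fitted log2 difference was 0.14 (95% interval -0.21 to 0.49, limma adjusted p = 0.645; 0.25 relative to the median gene). Vsig4, the complement receptor of the immunoglobulin family that binds C3 fragments and clears bacteria from the blood, had 34.7, 30.5, 41.4 and 46.6 FPKM in RIC_hEV 1 to 4, against 47.1, 46.1, 43.2 and 36.2 FPKM in ctr_hEV 1 to 4. The libraries ctr_hEV 1 to 3 and RIC_hEV 4 formed its upper end, and the fitted log2 difference was -0.18 (95% interval -0.50 to 0.14, limma adjusted p = 0.531; -0.07 relative to the median gene).

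Cd5l was high in the pair of libraries that stood apart. It had 186, 217, 252 and 256 FPKM in RIC_hEV 1 to 4, against 379, 254, 356 and 206 FPKM in ctr_hEV 1 to 4, so ctr_hEV 1 and ctr_hEV 3 lay above the other 6. Its fitted log2 difference was -0.36 (95% interval -0.79 to 0.07, limma adjusted p = 0.402; -0.25 relative to the median gene), and -0.02 without ctr_hEV 1 and ctr_hEV 3. The summed general macrophage genes were also highest in those libraries.

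Among the scavenger and uptake receptors, Cd163 varied most between libraries and Marco carried 1 high library. Cd163, the receptor that clears complexes of haemoglobin and haptoglobin, had 4.59, 1.80, 3.01 and 5.42 FPKM in RIC_hEV 1 to 4, against 0.890, 2.68, 0.562 and 3.65 FPKM in ctr_hEV 1 to 4. The highest library held 9.65 times the lowest, against 1.54 to 2.56 times in the other 9 members. Its mean was 3.71 ± 1.62 FPKM in RIC_hEV and 1.94 ± 1.47 FPKM in ctr_hEV (SD, n = 4 each). The fitted log2 difference of 0.75 was the largest of the members (95% interval -0.05 to 1.54, limma adjusted p = 0.367; 0.86 relative to the median gene). Both lowest values were those of ctr_hEV 1 and ctr_hEV 3, and without that pair the difference was 0.12. Marco, a collagen-like scavenger receptor for bacteria and particles, had 25.0, 21.4, 17.4 and 44.6 FPKM in RIC_hEV 1 to 4, against 27.8, 21.8, 23.0 and 20.3 FPKM in ctr_hEV 1 to 4. RIC_hEV held its lowest library and its highest, RIC_hEV 4. The fitted log2 difference was 0.14 (95% interval -0.39 to 0.66, limma adjusted p = 0.777; 0.25 relative to the median gene) and -0.13 without RIC_hEV 4.

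Folr2, the folate receptor beta of tissue macrophages, had 10.2, 5.41, 8.66 and 10.8 FPKM in RIC_hEV 1 to 4, against 9.77, 10.5, 5.70 and 7.92 FPKM in ctr_hEV 1 to 4. Each group held 1 library under 6 FPKM, RIC_hEV 2 and ctr_hEV 3. The means were 8.75 ± 2.40 FPKM in RIC_hEV and 8.47 ± 2.14 FPKM in ctr_hEV (SD, n = 4 each), a fitted log2 difference of 0.03 (95% interval -0.44 to 0.51, limma adjusted p = 0.944; 0.15 relative to the median gene). The level of Folr2 is uncertain, since 56.9% of its 31-base stretches also occur in other annotated genes and its exons overlap Gm10602 on the opposite strand. Clec1b, the receptor for podoplanin that is known best from platelets and is also made by mouse Kupffer cells, had 3.21, 4.15, 4.73 and 4.62 FPKM in RIC_hEV 1 to 4, against 4.54, 5.14, 5.78 and 4.22 FPKM in ctr_hEV 1 to 4. RIC_hEV 1 was lowest and ctr_hEV 3 highest, with a fitted log2 difference of -0.20 (95% interval -0.48 to 0.09, limma adjusted p = 0.458; -0.09 relative to the median gene). Of 6 platelet markers 5 had a mean under 1 FPKM. The other, Pf4, had a mean of 4.50 FPKM, close to the 4.55 FPKM of Clec1b, and reached 9.39 FPKM in ctr_hEV 1. The platelet list summed to 3.73 to 6.43 FPKM in RIC_hEV and 4.16 to 10.6 FPKM in ctr_hEV. The part of platelets in the level of Clec1b was not tested. Exons annotated to Clec1b also overlap those of Clec9a on the same strand, a dendritic cell gene at 0.220 to 1.19 FPKM in RIC_hEV and 0.336 to 1.39 FPKM in ctr_hEV.

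Like Cd5l, the general macrophage genes Adgre1 and Csf1r were highest in ctr_hEV 1 and ctr_hEV 3. Adgre1, which encodes the surface protein F4/80, had 18.2, 20.04, 21.2 and 24.7 FPKM in RIC_hEV 1 to 4, against 33.3, 21.4, 26.7 and 18.4 FPKM in ctr_hEV 1 to 4. Csf1r, the receptor for CSF-1 and IL-34, had 25.0, 21.5, 20.1 and 27.3 FPKM in RIC_hEV 1 to 4, against 42.7, 24.7, 29.8 and 20.8 FPKM in ctr_hEV 1 to 4. In both genes ctr_hEV 1 and ctr_hEV 3 lay above the other 6 libraries, and the remaining ctr_hEV libraries lay among those of RIC_hEV. The fitted log2 difference was -0.21 for Adgre1 (95% interval -0.59 to 0.17, limma adjusted p = 0.532; -0.10 relative to the median gene). It was -0.28 for Csf1r (95% interval -0.71 to 0.16, limma adjusted p = 0.486; -0.17 relative to the median gene). Without ctr_hEV 1 and ctr_hEV 3 these differences were 0.07 and 0.04. Exons of Csf1r overlap Hmgxb3 on the opposite strand, and with no strand setting stated their reads cannot be told apart there.

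**Figure D2:**
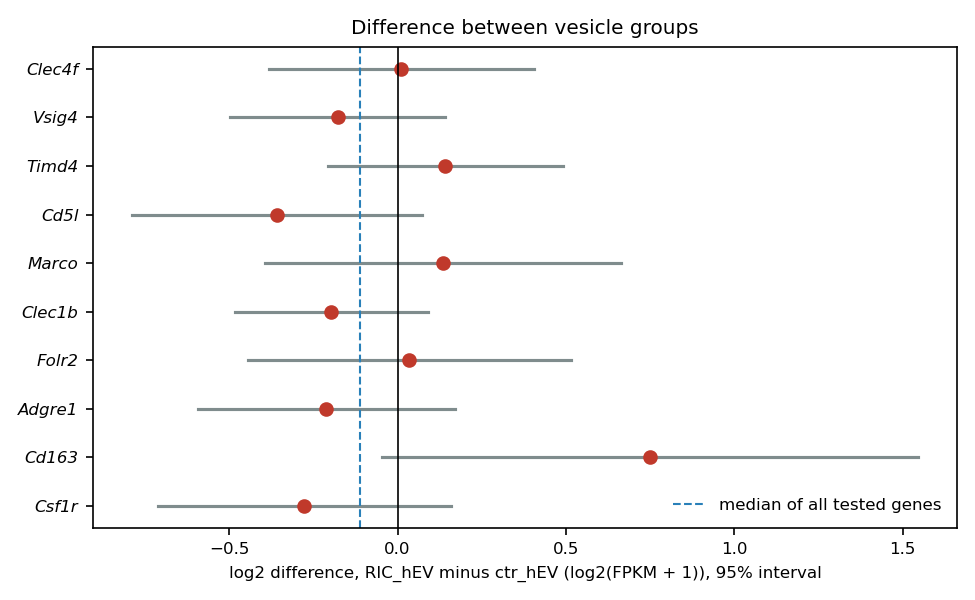
Fitted log2 difference of each member, RIC_hEV minus ctr_hEV, on the log2(FPKM + 1) scale (points, x axis) with its 95% interval (lines); the dashed line is the median of all 11274 tested genes, -0.11. All 10 intervals include 0, and that of Cd163 is the widest.

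Setting each member against the general macrophage genes of the same library gave some members an almost fixed level and others a variable one. The measure was the log2(FPKM + 1) of the member minus the mean of the 17 general macrophage and myeloid genes, an alternative chosen after the data were seen. Adgre1 held an almost fixed ratio, at -0.70 ± 0.04 log2 units in RIC_hEV and -0.78 ± 0.04 in ctr_hEV (SD, n = 4 each). Cd5l was at 2.68 ± 0.09 in RIC_hEV and 2.74 ± 0.11 in ctr_hEV. Clec4f was more variable, at 0.69 ± 0.37 in RIC_hEV and 0.38 ± 0.49 in ctr_hEV, as was Cd163, at -2.98 ± 0.55 in RIC_hEV and -4.03 ± 1.09 in ctr_hEV.

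In 4 of the 10 members (Clec4f, Timd4, Marco and Cd163) the relative levels of ctr_hEV 1 and ctr_hEV 3 lay below those of all 6 other libraries, as they did in 61.1% of all tested genes. Clec4f was at 1.06, 0.18, 0.66 and 0.85 log2 units in RIC_hEV 1 to 4, against -0.08, 0.82, -0.02 and 0.79 in ctr_hEV 1 to 4. Timd4 was at -2.80, -3.34, -3.49 and -3.12 in RIC_hEV 1 to 4, against -4.17, -3.17, -4.07 and -3.09 in ctr_hEV 1 to 4. In both genes ctr_hEV 2 and ctr_hEV 4 lay among the RIC_hEV libraries. The macrophage level is itself part of this measure, so a member that does not follow it is lower where it is high. Between the groups 9 members were fitted higher in RIC_hEV on this measure and Cd5l lower, and 87.2% of all tested genes were fitted higher. The median difference was 0.22 log2 units for the members and 0.19 for all tested genes. This measure shifts the fitted difference of every gene by the same amount. The members therefore lie as far from genes in general as in the first comparison, where the medians were -0.08 and -0.11. These fitted differences are the earlier ones shifted and are not a separate result. None of the members passed (lowest limma adjusted p = 0.551). Their groups overlapped in all 10, against 2.69% of all tested genes in which they did not (2.33% with RIC_hEV higher). At an unadjusted p under 0.05 there was 1 member, Cd163, against 8.77% of all tested genes. The largest difference was that of Cd163, 1.05 ± 0.42 log2 units (SE, limma adjusted p = 0.551).

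**Figure D3:**
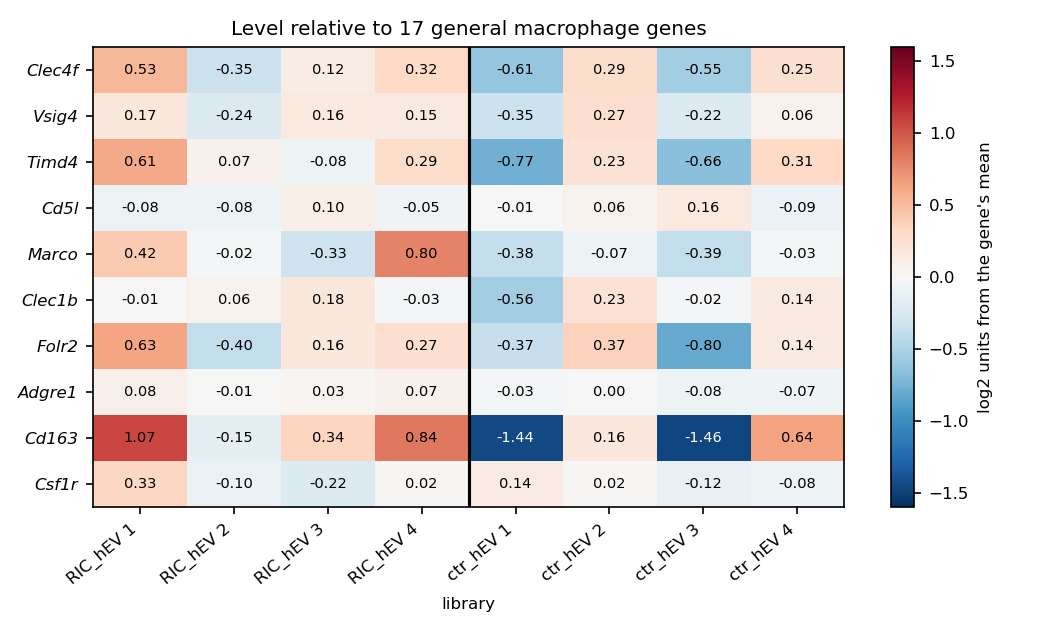
Level of each member relative to 17 general macrophage genes in the same library, in log2 units from the mean of that member over the 8 libraries; columns are libraries, with RIC_hEV left of the line. Adgre1 stays between -0.08 and 0.08 log2 units, whereas Cd163 lies at -1.44 in ctr_hEV 1 and -1.46 in ctr_hEV 3 and at 1.07 in RIC_hEV 1.

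The members differed in how alike their levels were across the 8 libraries, and the signs of many pairs rested on ctr_hEV 1 and ctr_hEV 3. Of their 45 pairs, 29 had a positive Pearson r of log2(FPKM + 1) and 16 a negative one, with a median of 0.41. In the 6 libraries without that pair, 39 were positive and 6 negative, with a median of 0.55 and a lowest r of -0.28. These values describe 8 libraries that share groups and the depth and composition of each library. Clec4f and Folr2 were alike (r = 0.91, Spearman rho = 0.90, n = 8 libraries; r = 0.97 in the 6 without ctr_hEV 1 and ctr_hEV 3). Cd5l and Adgre1 were alike (r = 0.95 with the same rank order, n = 8 libraries; r = 0.88 in those 6). Cd5l and Cd163 ran opposite over all libraries (r = -0.78, n = 8 libraries), a relation that rests on ctr_hEV 1 and ctr_hEV 3, since r was -0.08 in the other 6. The rank order of Cd5l and of Adgre1 over the 8 libraries was the same as that of the mean level of the 17 general macrophage genes (r = 0.98 for Adgre1 and 0.97 for Cd5l), whereas Clec4f had rho = -0.14 with it. The negative r of Cd163 with that level (-0.74) and of Timd4 (-0.54) rested on ctr_hEV 1 and ctr_hEV 3, since they were 0.02 and 0.12 in the other 6 libraries, and Clec4f had 0.26 there. For Csf1r the r with that level fell from 0.86 to 0.28 in those 6, and its r with Cd5l from 0.79 to 0.15.

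**Figure D4:**
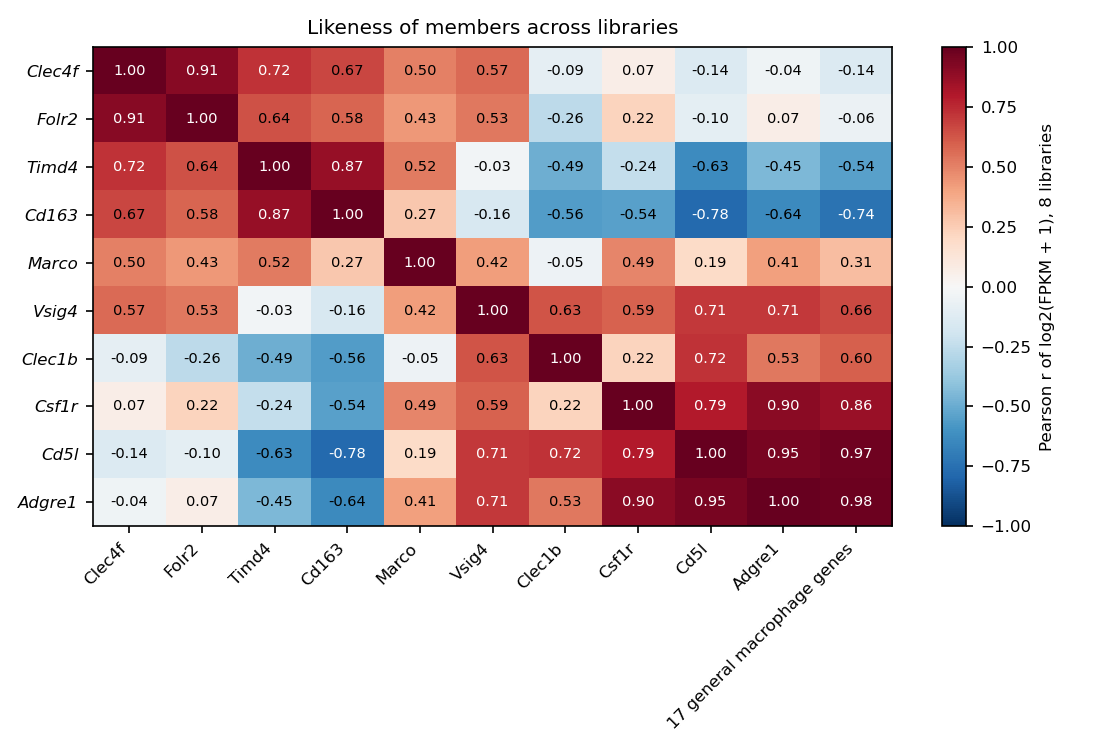
Pearson r of log2(FPKM + 1) over 8 libraries between members, and in the last column between each member and the mean of 17 general macrophage genes. Cd5l and Adgre1 reach 0.97 and 0.98 with the general macrophage genes, Clec4f and Folr2 reach 0.91 with each other, and Cd163 is at -0.74 with the general macrophage genes, or at 0.02 in the 6 libraries without ctr_hEV 1 and ctr_hEV 3.

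The genes outside the list whose pattern lay nearest to a member were found by the highest r among all other tested named genes over the 8 libraries. For Clec4f they were Micall1 (r = 0.97), Chd3 (0.94) and Dab2ip (0.93). For Timd4 they were Aldh5a1 (0.97), the mitochondrial enzyme that degrades succinic semialdehyde, Adgrf5 (0.93) and Bhmt2 (0.92), an enzyme of methionine synthesis in liver. For Cd163 they were Clstn3 (0.96), Pcsk6 (0.94) and Ak3 (0.94), with r of 0.84, 0.77 and 0.75 in the 6 libraries without ctr_hEV 1 and ctr_hEV 3. Adgre1 lay nearest to Capzb, Fermt3 and Wdfy4 (0.99 each); Fermt3 encodes kindlin-3, an integrin activator of blood cells. Csf1r lay nearest to Hspg2, Pxdn and Eif4e3 (0.99 each), the first of them the basement membrane protein perlecan. Cd5l lay nearest to Sort1, Phf10 and Arhgap19 (0.99 each), Vsig4 to Cstf3 (0.97), Marco to Pi4ka (0.98), Clec1b to Psmc6 (0.98) and Folr2 to Chtf8 (0.91). Each was picked as the highest among all tested genes and is a description of these libraries only.

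Other genes of resident Kupffer cells were mostly fitted lower in RIC_hEV, without passing. Of 6 tested, 0 passed in either direction and 5 were fitted lower. By limma 5 had an unadjusted p under 0.05, against 14.0% of all tested genes. These are not the same 5 genes, since C6 was fitted higher and Slc16a9, fitted lower, did not reach that level. The list was chosen with earlier results of these data known, so its share is not independent of them. The median log2 difference was -0.37, against -0.11 for all tested genes. Without ctr_hEV 1 and ctr_hEV 3 that median was -0.14, with 4 fitted lower, against -0.03 for all genes tested there. Slc40a1, the iron exporter ferroportin, had 19.5, 18.5, 19.8 and 22.1 FPKM in RIC_hEV 1 to 4, against 31.3, 27.8, 28.3 and 24.7 FPKM in ctr_hEV 1 to 4. Its groups did not overlap, with every RIC_hEV library below every ctr_hEV library, as in 4.56% of all tested genes. The fitted log2 difference was -0.47 (95% interval -0.70 to -0.24, limma adjusted p = 0.332; -0.36 relative to the median gene), and -0.38 without ctr_hEV 1 and ctr_hEV 3. Fabp7, a fatty acid binding protein, averaged 7.49 ± 1.49 FPKM in RIC_hEV and 11.8 ± 2.57 FPKM in ctr_hEV (SD, n = 4 each; limma adjusted p = 0.332), with overlapping groups. Hmox1, the haem-degrading enzyme, averaged 82.8 ± 12.4 FPKM in RIC_hEV and 110 ± 22.8 FPKM in ctr_hEV (SD, n = 4 each, limma adjusted p = 0.354). The log2 difference of Hmox1 was -0.40, and -0.16 without ctr_hEV 1 and ctr_hEV 3. C6, a complement component, was the exception, at 16.3 to 22.6 FPKM in RIC_hEV and 13.5 to 16.1 FPKM in ctr_hEV (limma adjusted p = 0.354). Its groups narrowly did not overlap, with RIC_hEV higher, as in 1.31% of all tested genes. Slc40a1, Hmox1 and C6 are also made by other liver cells, so their levels are not those of Kupffer cells alone. Hp, which encodes the haptoglobin that Cd163 recognises together with haemoglobin, averaged 3267 ± 464 FPKM in RIC_hEV and 3274 ± 300 FPKM in ctr_hEV (SD, n = 4 each).

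The identity factors did not differ past the threshold either. Of 13 transcription factors 12 were tested and 0 passed, with 2 fitted higher and 10 lower and a median log2 difference of -0.14. Among all tested genes 73.0% were fitted lower, with a median of -0.11. Nr1h3, which is also active in hepatocytes, averaged 26.4 ± 0.959 FPKM in RIC_hEV and 25.7 ± 1.66 FPKM in ctr_hEV (SD, n = 4 each). Spic, which encodes Spi-C, averaged 1.31 ± 0.250 FPKM in RIC_hEV and 1.503 ± 0.364 FPKM in ctr_hEV, and Id3 36.9 ± 7.89 FPKM in RIC_hEV and 44.2 ± 9.86 FPKM in ctr_hEV. Spi1, which encodes PU.1, averaged 9.03 ± 1.21 FPKM in RIC_hEV and 10.96 ± 3.45 FPKM in ctr_hEV.

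Of 11 ligands and receptors of the Kupffer cell niche, 0 passed, 3 were fitted higher and 8 lower, against 73.0% of all tested genes fitted lower. Their median log2 difference was -0.24, against -0.11 for all tested genes. The CSF1R ligand Csf1 averaged 2.97 ± 0.351 FPKM in RIC_hEV and 4.17 ± 1.40 FPKM in ctr_hEV (SD, n = 4 each; limma adjusted p = 0.368). Its highest libraries were ctr_hEV 1 and ctr_hEV 3, and without them the log2 difference was -0.08 in place of -0.35. The other ligand, Il34, averaged 2.28 ± 0.811 FPKM in RIC_hEV and 2.09 ± 0.805 FPKM in ctr_hEV. The Notch ligand Dll4 averaged 0.981 ± 0.193 FPKM in RIC_hEV and 1.505 ± 0.411 FPKM in ctr_hEV (limma adjusted p = 0.354). Its log2 difference was -0.33, and -0.14 without ctr_hEV 1 and ctr_hEV 3. Of the BMP ligands made by stellate cells, Gdf2 averaged 13.7 ± 3.31 FPKM in RIC_hEV and 11.2 ± 0.506 FPKM in ctr_hEV, and Bmp10 2.003 ± 0.344 FPKM in RIC_hEV and 2.61 ± 0.934 FPKM in ctr_hEV.

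General and recruited macrophage genes were mostly fitted lower as well, as were 73.0% of all tested genes, again with 0 passing. All 17 general macrophage genes were fitted lower, with a median log2 difference of -0.28, and 12 of 13 tested genes of recruited and lipid-associated macrophages were fitted lower, with a median of -0.48. C1qa, a subunit of complement C1q, averaged 102 ± 10.3 FPKM in RIC_hEV and 118 ± 29.3 FPKM in ctr_hEV (SD, n = 4 each). Trem2, a lipid receptor of macrophages in injured liver, averaged 5.61 ± 0.989 FPKM in RIC_hEV and 7.63 ± 3.07 FPKM in ctr_hEV, with 10.8 and 9.70 FPKM in ctr_hEV 1 and ctr_hEV 3. Without that pair the log2 difference was 0.09 for C1qa and 0.13 for Trem2. Mertk, a receptor for dying cells in the general list, averaged 13.2 ± 2.07 FPKM in RIC_hEV and 14.6 ± 1.68 FPKM in ctr_hEV. Of 8 scavenging and efferocytosis genes 0 passed and 6 were fitted lower, about the share of all tested genes. Of 5 genes of haemoglobin and iron handling 0 passed and 4 were fitted lower. The median log2 difference of these 5 was -0.01, and 4 of them lay above the median gene. Among markers of other cells 0 passed as well: all 7 hepatocyte markers were fitted higher (median log2 difference 0.29), as were Igkc and Jchain (1.03), the tested genes of the B and plasma cell list, and all 5 tested neutrophil markers were fitted lower (-1.12). The 7 stellate and 3 tested cholangiocyte markers were fitted lower (medians -0.33 and -0.74), and of 8 endothelial markers 4 were fitted higher and 4 lower. Markers of peritoneal macrophages, platelets, dendritic cells, T and NK cells and cell division left 1 to 3 tested genes each, of which 0 passed. Several of these list differences, but not all, rested largely on ctr_hEV 1 and ctr_hEV 3. Without them the median was -0.01 for the general macrophage list, -0.04 for the recruited list and -0.04 for the members. That of all genes tested there was -0.03. It was 0.02 for the transcription factors, 0.24 for the stellate list and -0.65 for the neutrophil list, with 4 of its genes still tested. The hepatocyte list kept a median of 0.27, but 2 of its 7 genes were then fitted lower, Alb (-0.19) and Ttr (-0.15). Igkc and Jchain kept a median of 0.87.

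**Figure D5:**
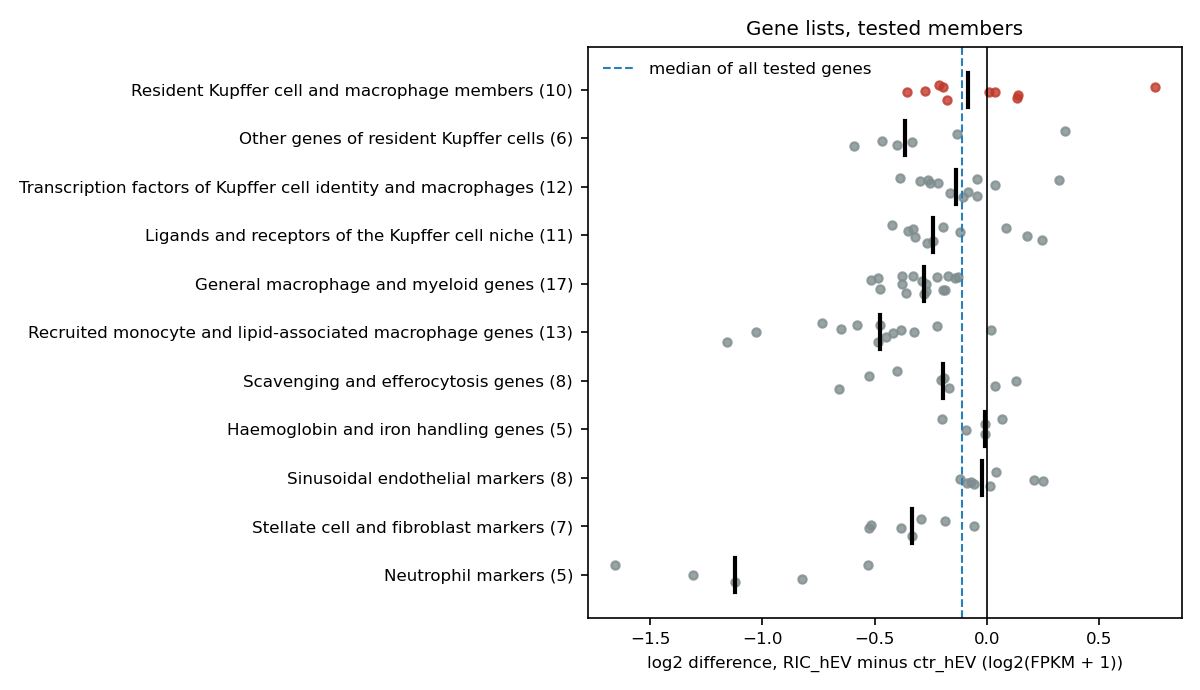
Fitted log2 difference, RIC_hEV minus ctr_hEV, of every tested gene (points) in 11 lists, with the number tested in brackets and the list median as a black bar; the dashed line is the median of all tested genes, -0.11. The members' median lies at -0.08, that of other Kupffer cell genes at -0.37 and that of recruited and lipid-associated macrophage genes at -0.48.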

How the data were processed

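The values are FPKM, deposited by the authors with 1 column per library and matched to samples by the sample titles. Per the submitters' processing notes, the tools were HISAT2 2.2.1 and HTSeq 0.13.5, with FastQC 0.11.9, Trimmomatic 0.38, R 3.4.1 and DESeq2 1.18.1, on mm10. Which annotation, gene lengths, strand setting and FPKM program were used remains not given in the sources used here. RNA was extracted with Trizol, per the labels' protocols. The 3225 rows without a gene name (0.176% to 0.207% of FPKM) were left out of the tests. For the 80 repeated symbols only the row of highest mean was used under that symbol, and 26 rows carry symbols turned into dates. Total FPKM was 389616 to 430326. FPKM times GENCODE M21 exon length had a most common low value, read as 1 fragment to estimate depth; between 17.5% and 24.3% of low values lay within 0.02 of a whole step, so no count model was used.

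RIC_hEV was compared with ctr_hEV in limma 3.58.1 (R 4.3.3) with a mean-variance trend, two-sided, on log2(FPKM + 1) for the 11274 genes with a mean of at least 1 FPKM, with Benjamini-Hochberg adjustment. Log2 differences on this scale understate those of low genes. The fit was also run on simulated data with independent noise for each gene and no libraries that stand apart. That run does not cover a pattern like that of ctr_hEV 1 and ctr_hEV 3. Named genes were the members, their fixed partners, leading list genes and, for likeness, the 3 highest r per member. Fabp7 and C6 were named after their values were seen. Members and lists (148 genes in 19 lists) were chosen with earlier results of these data known. Exon overlaps and shared 31-base stretches came from GENCODE M21, promoters from RefSeq.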

Additional observations from a re-analysis of the deposited data

Results flagged for a closer look

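One value lay far from the rest of its group among 66 groups of 4 libraries examined (members and their partner genes), where chance flags about 1 group in 20. Mertk was at 16.25 FPKM in RIC_hEV 4, against 11.8 to 12.5 FPKM in RIC_hEV 1 to 3.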

How the results depend on the processing

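No member passed under any of the 20 alternatives, and the median of the members' log2 differences ranged from -0.18 to 0.22. The number of genes passing was 2 with no filter on low values, 15 with estimated library weights, and 1 to 175 with single libraries left out (175 without ctr_hEV 4), against 4. On the TPM scale, the log2 differences of Clec4f and Folr2 turned to -0.0467 and -0.0189. Without ctr_hEV 1 and ctr_hEV 3 together (an alternative added later), Clec4f, Timd4 and Folr2 turned to -0.12, -0.0593 and -0.0915, and Adgre1 and Csf1r to 0.0707 and 0.0385. Relative to general macrophage genes (also added later), Vsig4, Clec1b, Adgre1 and Csf1r turned to 0.12, 0.10, 0.0868 and 0.0214. That measure shifts the differences of all genes by the same amount, so these turns are not separate results for each gene. With single libraries left out, Clec4f ranged from -0.11 to 0.18 (below 0 without RIC_hEV 1, RIC_hEV 4, ctr_hEV 1 or ctr_hEV 3), Folr2 from -0.12 to 0.22 (below 0 without RIC_hEV 1, RIC_hEV 4 or ctr_hEV 3) and Marco from -0.13 to 0.31 (below 0 without RIC_hEV 4). The cause was not tested. Cd5l and Cd163 kept their direction throughout, with adjusted p of 0.0934 to 0.988 and 0.0927 to 0.961.

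Replicate numbers showed no visible pairing of the libraries: deviations of same-numbered libraries correlated at 0.05, 0.12, -0.01 and -0.23, and 1 of 8 libraries correlated best with its own number. What the numbers stand for is not given, so these values cannot establish that the libraries are unpaired. With the replicate number as a block 3 genes and 0 members passed. By their lowest library, Cd163 (73) and Timd4 (98) rest on the fewest estimated fragments, followed by Folr2 (168). By their highest library Timd4 (196) and Folr2 (465) lie below Cd163 (638).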
